A study of Mus musculus with 7 samples.

Results

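The genes described here are 31 genes of the liver sinusoidal endothelium and of its angiocrine output, the growth factors that endothelial cells release to neighbouring hepatocytes. They were taken by symbol: every probe of the array whose platform gene symbol is one of the 31 was read, 57 probes in all, and all 31 genes had at least 1 probe. The array holds 19057 genes with a probe of a single symbol. Expression was measured on single-colour Illumina bead arrays, 1 per sample, in whole liver of C57BL/6 mice taken 12 h after partial hepatectomy (PHx), in which part of the liver is cut away and the remnant regrows. The 3 wild-type (WT) samples and the 4 samples of mice lacking the lymphotoxin beta receptor (LTBR KO, here KO) had all undergone PHx, so differences present before surgery and those arising later cannot be told apart. The labels give neither the age of the mice nor the allele by which the receptor was removed, and do not say that each sample is a separate animal, so the spread behind each p-value is that of these samples and may be partly technical. The comparison of KO with WT asks whether the endothelial programme of the regrowing liver differed with loss of this receptor, a member of the tumour necrosis factor receptor family.

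Sinusoidal endothelial cells line the liver's capillaries. They lack a continuous basement membrane, carry open pores, and clear waste molecules from blood through scavenger receptors such as the stabilins. They also instruct hepatocytes: Wnt ligands and R-spondin from endothelium near the central vein maintain the gene programme of that zone, and bone morphogenetic proteins (BMPs) from endothelium set hepatic iron control. After partial hepatectomy, vascular endothelial growth factor (VEGF) receptors on these cells and the transcription factor Id1 are known to be linked to the release of such ligands, and angiopoietin 2 of endothelial cells is known to change during regrowth.

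The deposited intensities had a median of 91.1 on every array. Background-corrected log2 intensities are used below, with a floor of 5.01 on that scale (an intensity of 93.9). The floor is the 0.95 quantile of a curve fitted to the background, so some background readings exceed it. A gene was tested where a probe lay above the floor on at least 3 of the 7 arrays, at its brightest such probe, by limma with Benjamini-Hochberg adjustment over all 12879 genes or unnamed probes. Of these, 9 passed an adjusted p under 0.05, which is 0.0699%. Differences are KO minus WT on the log2 scale, and the median over all genes tested was 0.03. The targeted gene Ltbr lay between 6.63 and 7.28 in WT and between 5.61 and 6.23 in KO (difference -1.04, SE 0.21, adjusted p = 0.088), so its 2 groups did not overlap although it missed the threshold. Among hepatocyte genes, Apoa1 lay between 14.47 and 14.76 on all arrays and Asgr1 between 11.52 and 12.42, whereas the single probe of Alb, the albumin gene, read only 5.92 to 7.77. In such tissue, fewer endothelial cells and less RNA per endothelial cell cannot be told apart.

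None of the 31 endothelial genes passed the threshold. Of the 28 with a tested probe, 15 lay above 0 and 13 below, with a median difference of 0.03, the same to 2 decimals as that of all genes tested. Gata4, which was tested only through its KO arrays, is 1 of the 15 and is included wherever the 28 are counted or averaged. At an unadjusted p under 0.05 there were 2 (Sox18 and Eng), or 7.14%, against 15% of all genes. Groups that did not overlap were found for 3 of the 28 (Eng, Nos3 and Sox18), against 13.3% of all genes, so neither count exceeds the background. Differences ran from -0.39 to 0.44. For 26 of 28 members, 92.9%, the 95% interval lay inside a 2-fold change in either direction, against 89.7% of all genes. The other 2 members were Angpt2 and Id1. For dim genes the size of a difference depended on the background correction, as for Sox18 (0.41 with it, 0.17 without). The intervals of Flt4, Tie1, Clec1b, Wnt9b and Gata4, which lay near the floor, therefore do not bound a change in RNA. The remaining 3 members, Kdr, Bmp2 and Angpt1, had no probe above the floor on 3 arrays and were not tested. The 28 thus stand for those members that were bright enough, and 22 of them were above the floor on all 7 arrays.

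**Figure D1:**
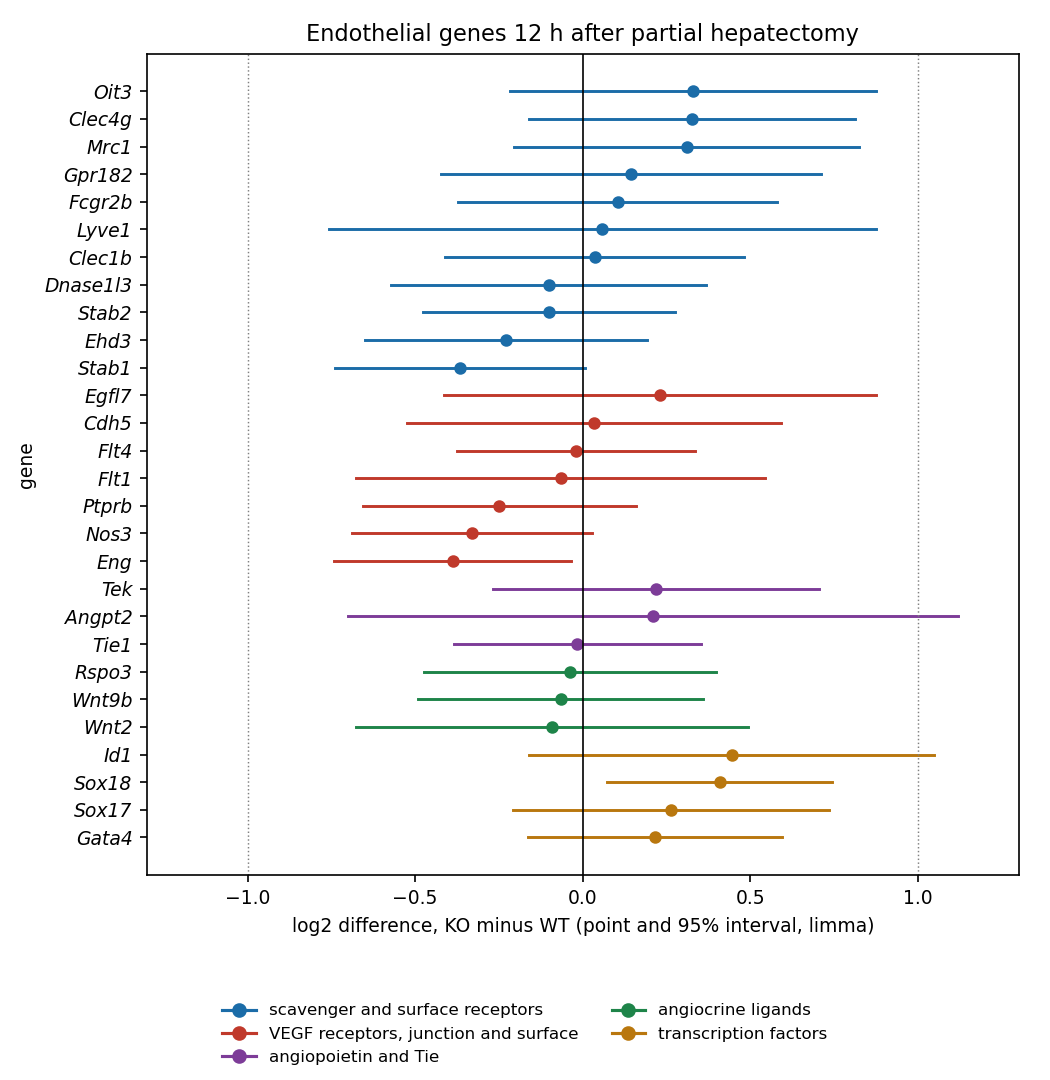
Log2 difference between KO and WT (x axis) for the 28 tested genes (y axis), coloured by role, with bars for the 95% interval from limma and dotted lines at a 2-fold change. All intervals but those of Eng and Sox18 cross 0, and those of Angpt2 and Id1 reach beyond a 2-fold change. Gata4 was tested only through its KO arrays.

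The scavenger and surface receptors were all measured, 11 of 11, and had a median difference of 0.06 with 7 above 0. Stab1, which encodes stabilin-1, a receptor for modified lipoproteins and matrix fragments that macrophages also carry, read 7.76, 7.81 and 7.65 in WT and 7.24, 7.44, 7.68 and 7.14 in KO. KO replicate 3 lay within the WT range and the other 3 KO samples below it. The difference was -0.37 (SE 0.17, adjusted p = 0.34), and it did not recur at the 2 dimmer probes of the gene, which gave -0.13 and 0.04. Stab2, the hyaluronan-clearing stabilin that marks sinusoidal endothelium more narrowly, read 7.56, 7.72 and 7.86 in WT and 7.41, 7.60, 7.52 and 7.92 in KO. KO samples enclosed the WT range, reaching beyond it at both ends (difference -0.10, SE 0.17, adjusted p = 0.83).

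Clec4g, a C-type lectin of sinusoidal endothelium, read 10.45, 10.84 and 10.49 in WT and 10.41, 10.80, 11.16 and 11.31 in KO. Its 2 highest samples were KO replicates 3 and 4, while KO replicates 1 and 2 lay within or just under the WT range (difference 0.33, SE 0.22, adjusted p = 0.54). Oit3, a secreted protein of sinusoidal endothelium, read 7.91, 7.50 and 6.84 in WT and 7.47, 8.09, 7.56 and 7.86 in KO, with WT replicate 3 the lowest (difference 0.33, SE 0.25, adjusted p = 0.58). Without that sample the difference was 0.04. Mrc1, the mannose receptor, which endothelium and macrophages both use to take up glycoproteins, read 8.25, 7.71 and 7.95 in WT and 8.05, 8.55, 7.81 and 8.73 in KO. KO replicates 2 and 4 lay above all WT samples and the other KO samples among them (difference 0.31, SE 0.23, adjusted p = 0.58).

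The other receptors of this kind differed by less. Fcgr2b, the inhibitory Fc receptor that clears immune complexes, averaged 7.50 ± 0.03 (SD, n = 3) across WT samples and 7.60 ± 0.42 (SD, n = 4) across KO samples, of which replicate 4 reached 8.18. Ehd3, a membrane trafficking protein, differed by -0.23 (SE 0.19), Gpr182, a receptor that scavenges chemokines, by 0.14 (SE 0.26), and Dnase1l3, a secreted nuclease, by -0.10 (SE 0.21). Clec1b, a receptor for podoplanin that platelets and Kupffer cells carry in mice, was close to the floor and above it on 1 WT and 2 KO arrays (difference 0.04, SE 0.20). It lies on chromosome 6, as Ltbr does, with 20 tested genes between them.

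Lyve1, the hyaluronan receptor shared with lymphatic vessels, spread most of all members. It read 10.13, 9.01 and 8.21 in WT and 8.95, 9.40, 9.61 and 8.74 in KO, so that all 4 KO samples lay inside the WT range and the WT samples alone spanned 3.78-fold. The difference was 0.06 (SE 0.37, adjusted p = 0.96). It turned to -0.39 without WT replicate 3 and stood at 0.57 without WT replicate 1, both short of the threshold (adjusted p = 0.58 and 0.44).

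**Figure D2:**
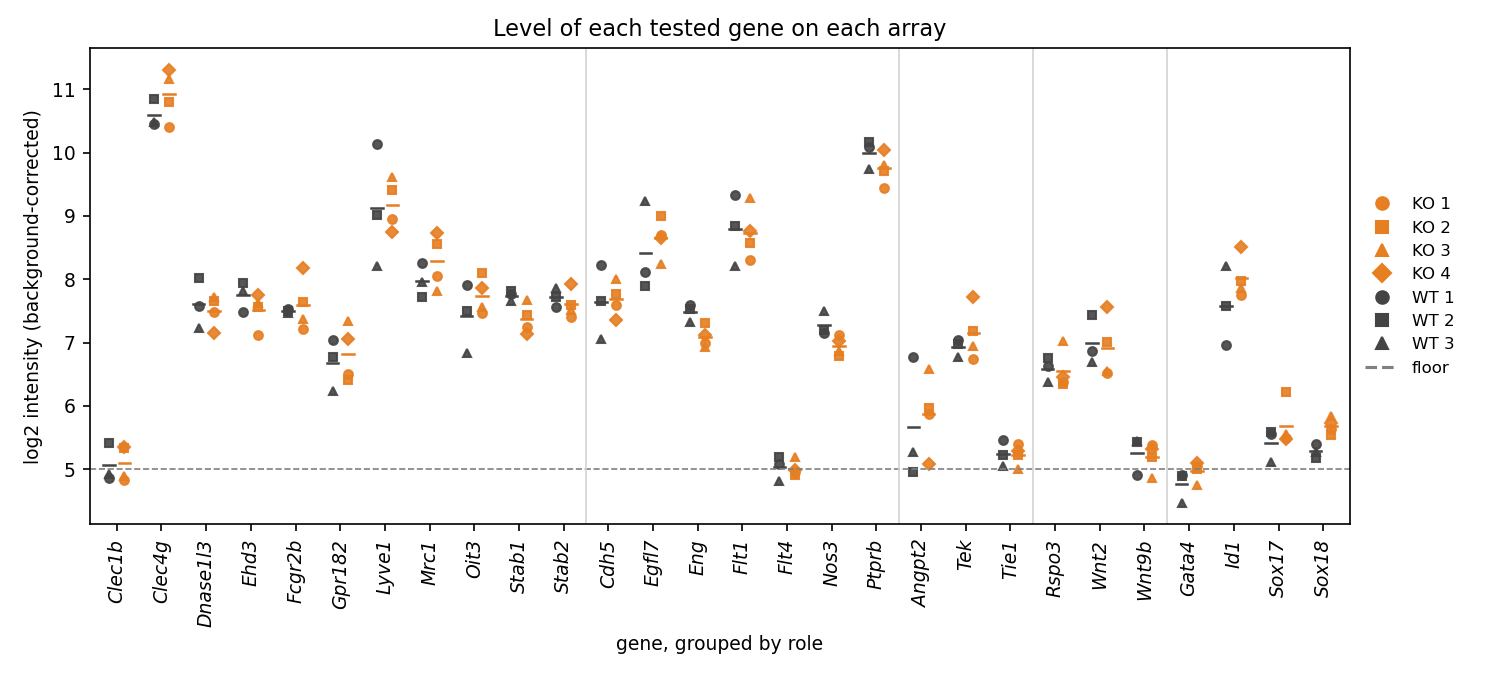
Background-corrected log2 intensity (y axis) of the 28 tested genes (x axis, grouped by role) on each of the 7 arrays, with WT in grey and KO in orange, a marker shape for each replicate number, short lines for group means and a dashed line at the floor of 5.01. The widest spread is that of Lyve1, whose WT samples alone run from 8.21 to 10.13.

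Among VEGF receptors and proteins of the endothelial junction and surface, 7 of 8 were tested, with a median of -0.07 and 5 below 0. Eng and Nos3 were the 2 members whose KO values all lay under the WT values, as did those of 5.57% of all genes. Eng, endoglin, a co-receptor for BMP9 and transforming growth factor beta, read 7.59, 7.52 and 7.32 in WT and 6.99, 7.31, 6.93 and 7.12 in KO. WT replicate 3 and KO replicate 2 nearly met, so the separation of the groups was narrow (difference -0.39, SE 0.16, adjusted p = 0.29). Nos3, endothelial nitric oxide synthase, read 7.15, 7.19 and 7.49 in WT and 7.12, 6.79, 6.86 and 7.02 in KO (difference -0.33, SE 0.16, adjusted p = 0.38). Its 2 dimmer kept probes gave -0.37 and -0.30, with overlapping groups, so all 3 probes lay below 0.

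The RefSeq promoter table (GRCm38.p6, from 250 bases before to 50 bases after a gene's start) held an entry for 16 of the 31 genes. The entries of Eng, the member with groups that do not overlap that had one, and of Egfl7, the member of widest spread across arrays that had one, are shown with capitals at matches to AGGAAG or CGGAAG on either strand. These letters hold the core bound by ETS factors, a family that includes the endothelial regulators Erg and Fli1. Such a match was in 9 of the 16 promoters, 56.2%, and in 46.4% of all 27025 promoters of that length. It is a description of the letters and not of binding. Eng lies on the plus strand (chr2:32646345-32646644) and holds 2 matches, and Egfl7 lies on the plus strand (chr2:26580833-26581132) and holds 3.
Eng: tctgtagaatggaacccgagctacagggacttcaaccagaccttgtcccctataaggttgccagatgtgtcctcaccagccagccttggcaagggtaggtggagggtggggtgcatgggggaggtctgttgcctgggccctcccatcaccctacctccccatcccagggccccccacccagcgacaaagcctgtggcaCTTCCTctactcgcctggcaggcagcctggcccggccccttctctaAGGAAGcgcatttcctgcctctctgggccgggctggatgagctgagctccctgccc
Egfl7: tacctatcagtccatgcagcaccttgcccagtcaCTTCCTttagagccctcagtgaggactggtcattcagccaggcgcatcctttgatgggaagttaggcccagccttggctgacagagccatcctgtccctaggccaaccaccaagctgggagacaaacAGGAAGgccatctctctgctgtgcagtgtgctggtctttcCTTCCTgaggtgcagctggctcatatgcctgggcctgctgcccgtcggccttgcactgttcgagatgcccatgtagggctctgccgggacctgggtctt

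Flt1, VEGF receptor 1, which binds VEGF-A without strong signalling, read 9.33, 8.84 and 8.21 in WT and 8.30, 8.57, 9.28 and 8.76 in KO. Highest were WT replicate 1 and KO replicate 3, and the lowest WT replicate 3 and KO replicate 1, so the spread crossed the genotypes (difference -0.07, SE 0.28, adjusted p = 0.94). Without WT replicate 1 the difference was 0.20 and still did not pass. Cdh5, VE-cadherin of endothelial junctions, gave 8.22, 7.66 and 7.06 in WT and 7.59, 7.77, 8.0 and 7.36 in KO (difference 0.03, SE 0.26). Its second probe differed by -0.14. Egfl7, a secreted protein that guides endothelial cells, ran opposite to these, with 8.12, 7.90 and 9.23 in WT and 8.69, 9.0, 8.25 and 8.65 in KO (difference 0.23, SE 0.29, adjusted p = 0.77). Of the settings tried, it passed in 1, that without KO replicate 3 and WT replicate 3 (difference 0.77, adjusted p = 0.045), a pair chosen with earlier results of these data known. In that setting 562 of 11785 genes passed, and 1 of 27 members.

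Ptprb, the phosphatase VE-PTP that restrains Tie2, read 10.09, 10.17 and 9.74 in WT and 9.45, 9.72, 9.81 and 10.04 in KO (difference -0.25, SE 0.19, adjusted p = 0.58). KO replicates 1 and 2 lay below all WT samples and KO replicates 3 and 4 within the WT range. Flt4, VEGF receptor 3, was at the floor, with 2 WT and 1 KO arrays above it (difference -0.02, SE 0.16). Kdr, VEGF receptor 2, the main signalling receptor for VEGF-A, had 2 probes, and 1 reading of the 14 exceeded the floor, that of KO replicate 2 at one probe (5.06). These probes were not well above background, so a level of Kdr in either genotype cannot be given from them.

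Angiopoietins act through Tie2: angiopoietin 1 from mural cells activates it and angiopoietin 2 from endothelium can counter it. Tek, which encodes Tie2, read 7.04, 6.98 and 6.78 in WT and 6.74, 7.19, 6.94 and 7.73 in KO, with KO replicate 4 the highest and the other KO samples within or near the WT range (difference 0.22, SE 0.22, adjusted p = 0.70). Angpt2 read 6.77, 4.95 and 5.28 in WT and 5.87, 5.97, 6.58 and 5.08 in KO. WT replicate 1 and KO replicate 3 were the highest, and WT replicate 2 was below the floor. The 95% interval of the difference of 0.21 ran from -0.70 to 1.12 (SE 0.42, adjusted p = 0.86). It was -0.15 without WT replicate 2 and 0.76 without WT replicate 1, neither past the threshold. The orphan receptor gene Tie1 differed by -0.02 (SE 0.17) close to the floor. Each of the 3 probes of Angpt1 had at most 1 reading above the floor.

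Of the 4 angiocrine ligands 3 were tested, and all 3 differences lay just below 0. Wnt2, an endothelial Wnt that drives hepatocyte proliferation, read 6.86, 7.44 and 6.70 in WT and 6.52, 7.01, 6.55 and 7.56 in KO. KO replicates 1 and 3 lay below all WT samples and KO replicate 4 above them (difference -0.09, SE 0.27, adjusted p = 0.91). Without WT replicate 2 the difference was 0.13 and did not pass. Rspo3, an R-spondin that amplifies Wnt signals at the central vein, read 6.64, 6.75 and 6.38 in WT and 6.38, 6.34, 7.03 and 6.45 in KO, with KO replicate 3 alone above the WT range (difference -0.04, SE 0.20, adjusted p = 0.95). Its second, dimmer probe gave 0.18. Wnt9b, a Wnt of central vein endothelium, read 4.90, 5.42 and 5.44 in WT and 5.38, 5.19, 4.86 and 5.32 in KO, near the floor, and gave -0.07 (SE 0.19, adjusted p = 0.91), while its dimmer probe gave -0.08. Bmp2, the endothelial BMP that induces hepcidin, lay below the floor on all 7 arrays (4.57 to 4.89).

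Wnt receptors and genes of the central vein zone, taken from a wider list, were tested for 14 genes. None passed, 6 lay above 0 and 8 below, and the median was -0.06. Fzd7, a Wnt receptor, differed by 0.52 (SE 0.19, adjusted p = 0.25), the pericentral enzyme gene Cyp1a2 by -0.57 (SE 0.26, adjusted p = 0.33) and cyclin D1 (Ccnd1) by -0.58 (SE 0.27, adjusted p = 0.33). Cyp1a2 passed with array weights (adjusted p = 0.047), a setting in which 1039 of 12879 genes passed. Of the zone's best-known markers, glutamine synthetase Glul differed by -0.23 (SE 0.24) and the Wnt feedback gene Axin2 by 0.20 (SE 0.16).

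The 4 transcription factors all had a tested probe, and none passed. Gata4 was tested only through its KO arrays, so no count or median over the 4 is given. Sox18, which acts in endothelial and lymphatic specification, read 5.40, 5.18 and 5.27 in WT and 5.64, 5.54, 5.84 and 5.74 in KO. Every KO sample exceeded every WT sample, as in 7.74% of all genes, and all 7 readings were dim (difference 0.41, SE 0.15, adjusted p = 0.25). Its relative Sox17 differed by 0.26 (SE 0.22), with KO replicate 2 at 6.21 and the other KO samples between 5.48 and 5.56. Its second probe gave -0.01. Id1, an inhibitor of basic helix-loop-helix factors and a direct BMP target, read 6.97, 7.57 and 8.20 in WT and 7.75, 7.97, 7.87 and 8.51 in KO. WT replicate 1 was the lowest and KO replicate 4 the highest, while WT replicate 3 lay above 3 of the 4 KO samples (difference 0.44, SE 0.28, adjusted p = 0.49). The difference was 0.14 without WT replicate 1 and 0.76 without WT replicate 3, neither past the threshold. Gata4, a factor that keeps sinusoidal identity, read 4.92, 4.90 and 4.47 in WT and 5.05, 5.01, 4.75 and 5.10 in KO. It was above the floor on no WT array and on 3 KO arrays, so that no size of a difference is given. It did not pass.

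Id1 belongs to BMP and ALK1 signalling, and 13 other genes of that route were tested. None passed, and 9 lay above 0 with a median of 0.10. Id2, of the same inhibitor family, read 9.28, 9.37 and 9.62 in WT and 10.10, 10.44, 10.06 and 10.01 in KO, with no overlap (difference 0.73, SE 0.17, adjusted p = 0.11). Of its 2 other probes 1 gave 0.95 and 1 gave 0.17. Id3 read 6.66, 6.50 and 6.90 in WT and 7.60, 7.61, 6.84 and 6.99 in KO, where KO replicate 3 lay within the WT range (difference 0.58, SE 0.22, adjusted p = 0.26). The 3 Id genes thus had higher KO means side by side, and none passed. With array weights Id2 (adjusted p = 0.017) and Id3 (adjusted p = 0.029) did, and Id2 also did without KO replicate 3 and WT replicate 3 (adjusted p = 0.037). In those 2 settings 1039 of 12879 and 562 of 11785 genes passed, against 9 in the main fit. The BMP feedback gene Smad6 differed by 0.08 (SE 0.15). Hamp, which encodes hepcidin, was near the top of the scale and differed by 0.03 (SE 0.15), and its paralog Hamp2 read 10.48, 9.67 and 8.64 in WT and 7.91, 7.82, 9.01 and 8.90 in KO (difference -1.19, SE 0.41, adjusted p = 0.21). Hamp2 passed in the same 2 settings as Id2, with an adjusted p of 0.022 and 0.023. Hamp and Hamp2 are close copies, and signal may be shared between their probes.

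**Figure D3:**
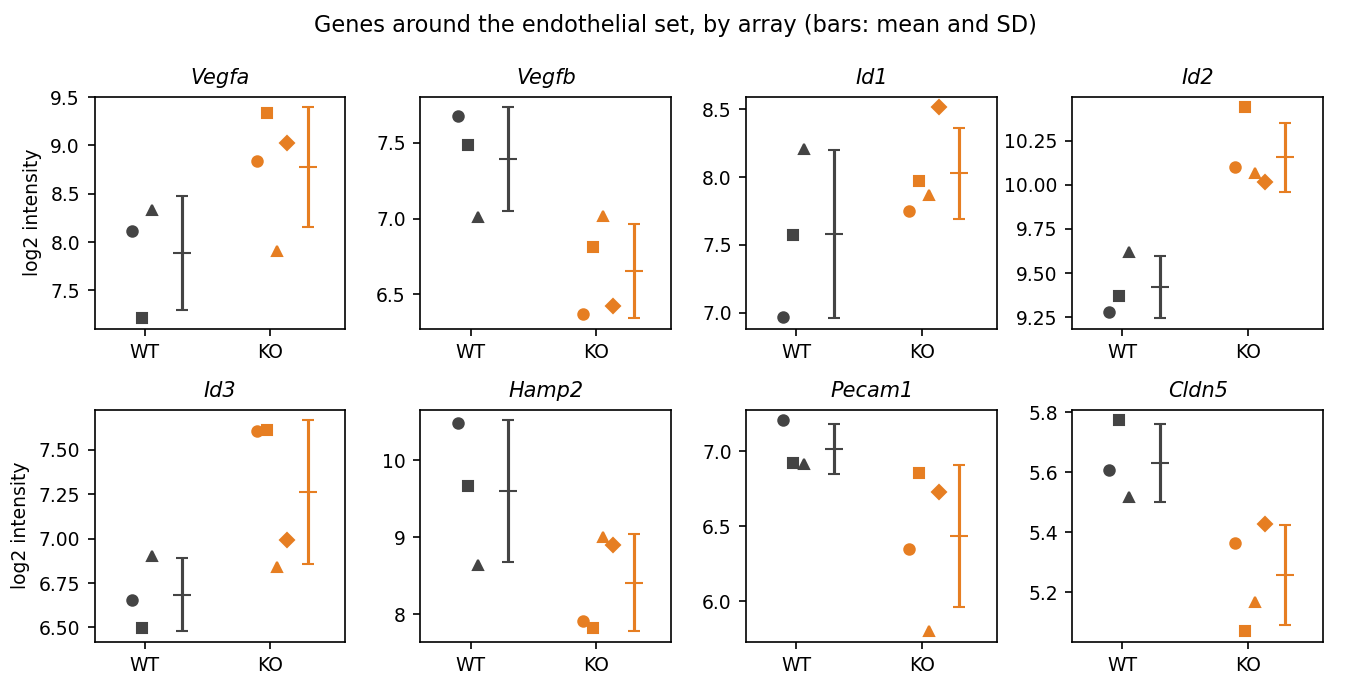
Background-corrected log2 intensity (y axis, a scale for each gene) of 8 genes around the endothelial set by genotype (x axis), with a marker for each array, shaped by replicate number as in the plot of levels, and bars for the mean and SD of 3 WT and 4 KO samples. The KO samples of Id2 sit between 10.01 and 10.44, above all WT samples, and those of Pecam1 and Cldn5 below all WT samples.

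The spread among samples of one genotype was larger than the genotype difference for most members. The WT samples alone ranged further than the distance between group means for 24 of 28 members, against 78.8% of all genes. The full range over the 7 arrays had a median of 0.88 for the members and 0.73 for all genes tested. WT replicate 3 was the lowest of the WT samples for 17 of 28 members, 60.7%, against 36.6% of all genes. WT replicate 1 was the highest of them for 13 members, 46.4%, against 35.7% of all genes. Both held for Lyve1, Flt1, Cdh5, Gpr182, Oit3, Fcgr2b, Tek, Tie1, Eng and Gata4. Neither order was particular to the members. WT replicate 3 was lowest of WT for 80% of other endothelial, 75% of platelet, 70% of macrophage, 63.6% of stellate and mural and 42.9% of hepatocyte genes. WT replicate 1 was highest of WT for 80%, 25%, 90%, 81.8% and 42.9% of the same lists, in that order. Averaged over the 28 members, the deviation from each gene's mean was 0.08, 0.02 and -0.18 in WT replicates 1 to 3 and -0.15, 0.07, 0.05 and 0.11 in KO replicates 1 to 4. WT replicate 3 and KO replicate 1 were therefore the 2 low samples, 1 of each genotype.

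**Figure D4:**
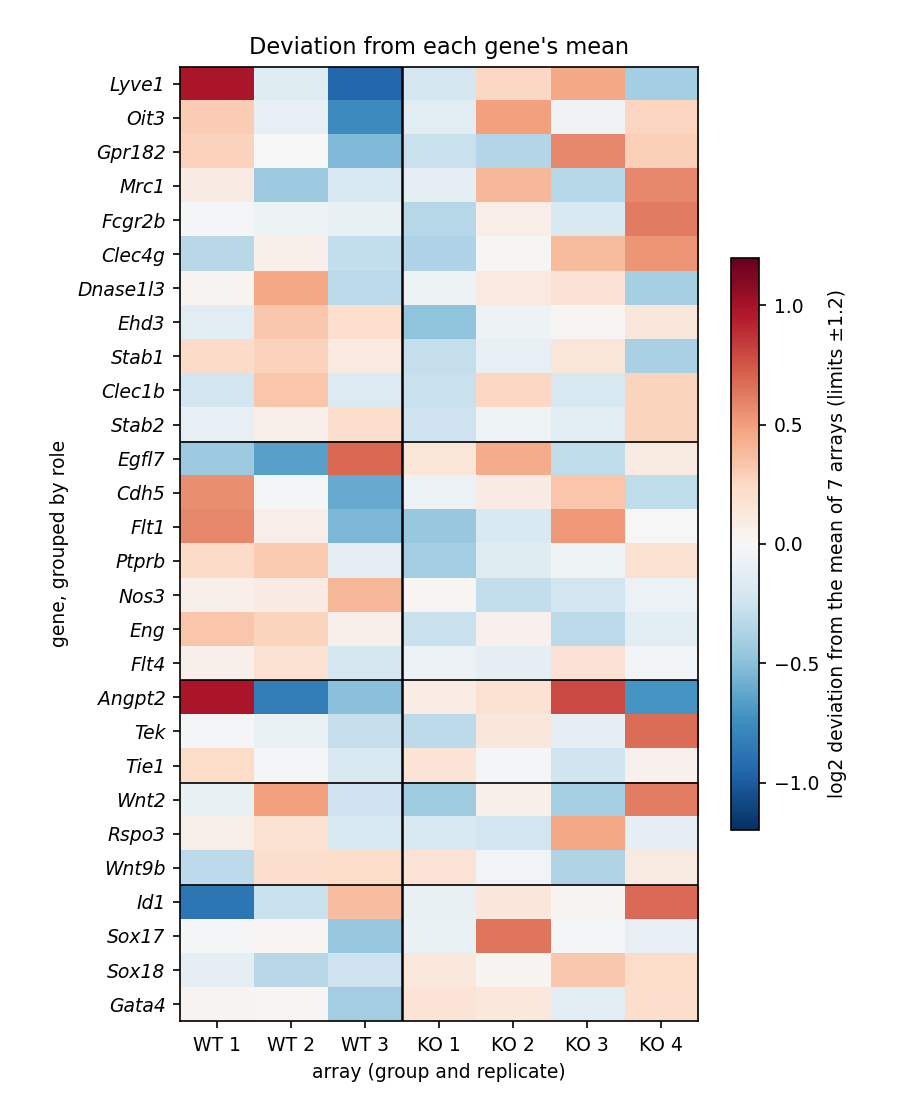
Deviation of each array (x axis) from the gene's mean over 7 arrays, on the log2 scale and by colour, for the 28 tested genes (y axis, grouped by role, widest range first). WT replicate 3 is the lowest WT sample for 17 of the 28 genes, 60.7%, against 36.6% of all genes and 80% of the other endothelial genes tested.

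Markers of other cells differed between the same samples. Of 10 tested macrophage markers 9 lay above 0, with a median of 0.39 and none past the threshold, and their mean deviation ran from -0.51 to -0.05 in WT and from 0.03 to 0.68 in KO. Marco, a scavenger receptor of macrophages, read 5.64, 5.39 and 6.47 in WT and 7.19, 6.92, 7.55 and 8.49 in KO, without overlap (difference 1.71, SE 0.35, adjusted p = 0.088). It passed with array weights (adjusted p = 0.014) and without KO replicate 3 and WT replicate 3 (adjusted p = 0.027), and the haemoglobin receptor gene Cd163 passed with array weights (adjusted p = 0.028). Of all genes, 1039 of 12879 passed with array weights and 562 of 11785 without that pair, against 9 in the main fit. In the mean deviation, lowest was WT replicate 3 and highest KO replicate 4. Among the endothelial members, KO replicate 4 was highest for Mrc1, Fcgr2b, Clec4g, Stab2, Tek, Wnt2, Id1 and Gata4, the last tested only through its KO arrays. It was lowest for Stab1 and Dnase1l3. How often that sample was highest or lowest among all genes was not counted, so no weight is put on these members. Cd5l, a defining marker of Kupffer cells, was not tested for want of a probe above the floor. Stellate and mural cell markers, 11 tested, had deviations from -0.29 to 0.38 in WT and from -0.16 to 0.30 in KO, with WT replicate 1 and KO replicate 3 the highest, as for Lyve1, Flt1 and Angpt2. Platelet markers, 4 tested, ran from -0.32 to 0.13 in WT and from -0.16 to 0.25 in KO. Hepatocyte markers, 7 tested, all lay below 0 with a median of -0.05, and their deviations ran from -0.06 to 0.19 in WT and from -0.10 to -0.04 in KO. These deviations include Asgr1, which differed by -0.40, and Alb, which differed by -0.39 at its low-reading single probe. The part of these other cells in the values above was not tested.

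Other endothelial genes outside the 31 also gave no call. Of 10 tested, 7 lay below 0 and the median was -0.13. Pecam1, the junction protein CD31, read 7.21, 6.93 and 6.91 in WT and 6.35, 6.86, 5.80 and 6.73 in KO, all KO samples lying under all WT samples, with KO replicate 3 far below (difference -0.58, SE 0.24, adjusted p = 0.28). Its other 2 probes gave -0.25 and -0.16. Cldn5, a claudin of endothelial tight junctions, read 5.61, 5.77 and 5.52 in WT and 5.36, 5.07, 5.17 and 5.43 in KO, again without overlap (difference -0.38, SE 0.16, adjusted p = 0.30). The endothelial-selective adhesion gene Esam differed by -0.29 (SE 0.19), and Emcn, Robo4 and Icam2 by between -0.09 and 0.05. On the other side of 0 lay Plvap, a protein of endothelial diaphragms, at 0.21 (SE 0.18) and the water channel gene Aqp1 at 0.22 (SE 0.19).

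Vegfa and Vegfb had differences of opposite sign, and neither passed, although both did in 2 of the other settings. With array weights the adjusted p was 0.022 for Vegfa and 0.018 for Vegfb, and without KO replicate 3 and WT replicate 3 it was 0.025 and 0.023. In those settings 1039 of 12879 and 562 of 11785 genes passed, against 9 of 12879 in the main fit. The pair left out was chosen with earlier results of these data known. Vegfa, the hepatocyte signal for Kdr, read 8.11, 7.21 and 8.34 in WT and 8.84, 9.34, 7.91 and 9.03 in KO. KO replicate 3 lay among the WT samples and the other 3 KO samples above them (difference 0.89, SE 0.34, adjusted p = 0.25), and a second probe gave 0.49. Vegfb, a ligand of Flt1, read 7.68, 7.49 and 7.01 in WT and 6.37, 6.81, 7.02 and 6.42 in KO, with KO replicate 3 level with WT replicate 3 and the other KO samples below (difference -0.74, SE 0.22, adjusted p = 0.16). Of the 6 VEGF ligands and co-receptors tested, 5 lay above 0. Notch and flow-responsive genes, 9 tested, had a median of -0.11, with Notch1 at 0.31 (SE 0.20) and Klf2, a factor induced by shear stress, at -0.11 (SE 0.18). Other angiocrine factors, 5 tested, had a median of -0.15, among them the vasoconstrictor gene Edn1 at -0.27 (SE 0.20).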

How the data were processed

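Total RNA of whole liver was labelled with biotin and hybridised to Illumina bead arrays, 1 per sample, per the labels. The deposited file holds intensity per probe on a linear scale, with the same median, minimum and maximum in all 7 columns, as values normalized between arrays have. The submitters' processing notes name Partek, with no version. A scanner table of 14 columns was not used, because no label ties its columns to samples. Samples were grouped by genotype in their titles.

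Background was removed with the normexp method of limma 3.58.1 (R 4.3.3; saddle estimate, offset 16) before taking log2. For the floor, a normal curve was matched to intensities under the mode, and its 0.95 quantile was used. Of 45281 probes 18296 were above it on at least 3 arrays. Symbols came from the platform annotation, and the brightest kept probe stood for each of the 3703 genes with several. KO and WT were compared by lmFit and eBayes of limma with no covariates, two-sided, adjusted by Benjamini-Hochberg over 12879 genes or unnamed probes. The fit was also run on simulated data of independent values. No recovery rate is given here, so that run does not measure the power to find differences of the members' size. The number of arrays limits the precision: the median SE of a difference was 0.19.

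The 31 members, the lists and the tests were chosen with earlier results of these data known, so no list is independent evidence. Members were printed for every array where they were among the 10 of smallest p or in a fixed set of 12, and a few others were added after their values were seen (Cdh5, Egfl7). From each wider list up to 3 genes of smallest p were allowed, and those named beyond them were likewise chosen after their values were seen. Lists of hepatocytes, macrophages, stellate and mural cells, platelets and lymphocytes served as markers of other cells, and no lymphocyte marker had a tested probe. Alternatives changed the background correction, normalization, filter, choice of probe, prior, array weights, threshold and replicate block, and left out samples.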

Additional observations from a re-analysis of the deposited data

Results flagged for a closer look

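The KO samples of 58 named genes were checked for 1 sample far from the other 3, measured as its gap to the nearest of them over the whole range of the group, against Dixon's 95% critical value. Chance marks about 1 gene in 20. There were 4 such genes, 2 of them among the 28 endothelial members. Rspo3 stood at a log2 intensity of 7.03 in KO replicate 3, against 6.34 to 6.45 in the other KO samples. Sox17 stood at 6.21 in KO replicate 2, against 5.48 to 5.56, at the brighter of its 2 probes. Edn1, the endothelin gene, stood at 6.09 in KO replicate 3, against 5.38 to 5.47. Cps1, a urea cycle enzyme gene of hepatocytes, stood at 13.87 in KO replicate 4, against 12.94 to 13.08. The cause was not tested.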

How the results depend on the processing

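Under 20 alternative settings, the 18 members printed by the naming rule (without Cdh5 and Egfl7) gave 354 values, of which 22 changed sign, and none of the 18 passed the threshold in any. Settings that changed only the threshold, the prior or the filter left each difference as it was, so no sign could change there. The same holds for the fit of every kept probe on its own, where the tested probe was read. Quantile normalization and median centring hardly moved a difference (Sox18 at 0.40864 and 0.40860, from 0.40866), because the deposited columns were already normalized. These settings therefore do not test the stability of a sign. Most sign changes came with 1 sample left out. Gata4, tested only through its KO arrays, is among the 18. The number of members that passed was 0 in all settings but 1, that without KO replicate 3 and WT replicate 3 together. There it was 1 of 27 tested (Egfl7), beside 562 of 11785 genes. The wider lists gave 0 passing genes, but 9 with array weights (Cd163, Col1a1, Cyp1a2, Hamp2, Id2, Id3, Marco, Vegfa and Vegfb), 1 at an adjusted p under 0.1 (Marco), and 5 without KO replicate 3 and WT replicate 3 together (Hamp2, Id2, Marco, Vegfa and Vegfb). Of all genes, 1039 of 12879, 81 of 12879 and 562 of 11785 passed in these settings, in that order. In the main fit the lists held 10 other endothelial, 6 VEGF, 9 Notch and flow, 13 BMP and 14 Wnt genes tested. They also held 5 other angiocrine, 10 macrophage, 11 stellate and mural, 7 hepatocyte and 4 platelet genes. The list counts are therefore not read as a result about the lists. The median difference of the members stayed between -0.07 and 0.12. The number of all genes that passed moved from 9 to 5 without background correction, 19 without a filter, 1 with probes above the floor on all arrays, 3 with the mean of a gene's probes, 2 with a trend and robust prior, 1039 with array weights, 81 at an adjusted p under 0.1, 3 with the replicate block, 562 without KO replicate 3 and WT replicate 3 together, and 2 to 3 with 1 sample left out. With array weights the lowest adjusted p of a member was 0.068 (Stab1). The deviations of same-numbered WT and KO samples from their group means had correlations of -0.20, -0.05 and -0.30. Samples of unlike number were not compared in this way, so whether same-numbered samples share a batch was not tested. With the replicate block no member passed, the lowest adjusted p being 0.51. No WT sample is numbered 4, so the block fit gives the same differences as leaving out KO replicate 4. Signs turned for Rspo3 with the mean of its probes (0.072), for Lyve1 with array weights (-0.067), and without KO replicate 3 and WT replicate 3 together for Angpt2 (-0.22), Lyve1 (-0.54), Stab2 (0.0045) and Wnt9b (0.14). With 1 sample left out, differences ran from -0.36 to 0.20 for Flt1, -0.15 to 0.76 for Angpt2, -0.20 to 0.043 for Rspo3, -0.31 to 0.13 for Wnt2, -0.24 to 0.044 for Wnt9b, -0.39 to 0.57 for Lyve1 and 0.14 to 0.76 for Id1. The cause of these shifts was not tested. Signal near the floor limits Flt4, Tie1, Clec1b, Wnt9b, Angpt2 and Gata4.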
